A study of Mus musculus and Acomys cahirinus with 84 samples.

Results

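The comparison set C56BL6 mouse skin fibroblasts given 20 Gy of gamma radiation against the same cells given 10 Gy, both harvested 24 h later. It rested on 8 of the 84 libraries of the series. These were the 4 libraries labelled 20 Gy and the 4 labelled 10 Gy at 24 h, chosen by population, dose and time in their titles and paired by the replicate number R1 to R4. The wider study profiled primary skin fibroblasts of C56BL6 mice, wild mice and the spiny mouse A. cahirinus at 24 h and 12 d after 0, 10 or 20 Gy, with 4 libraries a group, so that the response to dose could be compared between the animals. C56BL6 is the label's spelling of an inbred laboratory strain. No genetic change, age or sex of the animals is given in the labels used here. The 4 untreated C56BL6 libraries of 24 h serve below as the unirradiated level.

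PolyA RNA was sequenced from stranded libraries. The 10 Gy libraries held 28795415 to 38670926 counts over mouse genes and the 20 Gy libraries 28401683 to 39819857 counts. All libraries of 24 h belong to 1 labelled batch. Of 15 fibroblast markers, 12 had a mean of at least 1 CPM (CPM being counts of a gene scaled to 1 fixed library total) at each dose, with Col1a1 at a mean of 7292 CPM at 10 Gy and 7345 CPM at 20 Gy, while Lum, Fap and Dpt were under 1 CPM. Libraries numbered 1 stood apart at every dose: their 12 keratinocyte markers summed to 623 CPM without radiation, 509 CPM at 10 Gy and 469 CPM at 20 Gy, against 3.12 to 14.3 CPM in the other 9 libraries. Of those 12 markers, 7 had a mean under 1 CPM at each dose and Krt1 was at 0 throughout. Whether the culture of replicate 1 held keratinocytes is not stated in the labels used here. The part of these transcripts in the results was not tested beyond leaving replicate 1 out, and the counts without it are given beside the results. The summed endothelial markers ranged from 4.16 to 7.15 CPM at 10 Gy and from 3.99 to 5.79 CPM at 20 Gy, and the summed immune markers from 12.9 to 26.9 CPM and from 14.1 to 23.2 CPM. The immune markers Cd3e and Tyrobp had no count at any dose.

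Ionizing radiation breaks DNA, and cells answer by stabilizing p53, a transcription factor that turns on brakes of the cell cycle such as Cdkn1a (p21) and death genes such as Pmaip1. Through p21 and the retinoblastoma family, the DREAM complex silences the genes of the G2 phase and mitosis, whose start regions carry CCAAT boxes bound by NF-Y and the cell cycle element CHR bound by MuvB. Interferon-stimulated genes encode sensors of foreign nucleic acid, antiviral enzymes and signal proteins such as STAT2, and are switched on through an interferon-stimulated response element.

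Mitotic genes gave the most rises and interferon-stimulated genes the most falls of any list. Sequences before transcription starts are therefore shown for 4 interferon-stimulated genes, for the mitotic genes Top2a and Cdk1, and for Mtfr2 and Fam83d. Mtfr2 and Fam83d stood outside the mitotic list and were among the 8 largest rises. All sequences come from the RefSeq promoter table of mouse build GRCm38.p6. Each printed stretch was found once in GRCm39, the build of the count table, and overlapped no annotated exon there. All are printed 5′ to 3′ on the strand of the gene. For the interferon-stimulated genes, capitals mark GAAA on either strand (read as TTTC on the other), the letters that the interferon-stimulated response element repeats. Ifit1 lies at chr19:34618165-34618249 (plus strand), Rsad2 at chr12:26506499-26506591 (minus), Isg15 at chr4:156285304-156285441 (minus) and Cxcl10 at chr5:92496759-92496802 (minus).
Ifit1: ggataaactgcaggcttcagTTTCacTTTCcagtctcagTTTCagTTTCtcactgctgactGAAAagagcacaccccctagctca
Rsad2: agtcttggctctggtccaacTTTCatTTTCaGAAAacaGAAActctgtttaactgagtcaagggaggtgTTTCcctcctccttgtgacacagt
Isg15: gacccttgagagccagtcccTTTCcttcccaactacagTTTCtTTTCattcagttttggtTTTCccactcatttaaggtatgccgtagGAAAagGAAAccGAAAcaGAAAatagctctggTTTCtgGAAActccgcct
Cxcl10: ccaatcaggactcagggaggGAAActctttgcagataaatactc

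These letters are common. In the 250 bases before the start they were present in 28381 of 32851 promoters (86.4%) of the whole table, with a median of 2 matches a promoter. They were in 81.7% of promoters of genes tested, with a median of 2. Of the 46 promoters of all genes that fell, 95.7% held them, with a median of 3. All 10 promoters of the 10 interferon-stimulated genes that fell at 20 Gy held them, with a median of 5.5 matches, and the 38 promoters of the 32 list members with an entry had a median of 5. The printed stretches of Ifit1 and Rsad2 hold 5 matches each, that of Isg15 holds 10 and that of Cxcl10 holds 1. A match is a description of the letters and not a site shown to be bound.

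For Top2a, Cdk1, Mtfr2 and Fam83d, capitals mark CCAAT on either strand (read as ATTGG on the other) and TTTGAA or TTCGAA, the letters of the CHR, on either strand. Top2a lies at chr11:98915063-98915184 (minus), Cdk1 at chr10:69188773-69188842 (minus), Mtfr2 at chr10:20223429-20223515 (plus) and Fam83d at chr2:158609897-158609994 (plus).
Top2a: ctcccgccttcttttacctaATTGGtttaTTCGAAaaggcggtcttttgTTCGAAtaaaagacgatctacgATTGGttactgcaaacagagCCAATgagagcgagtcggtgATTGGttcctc
Cdk1: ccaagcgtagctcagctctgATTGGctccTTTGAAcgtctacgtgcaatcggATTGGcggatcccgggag
Mtfr2: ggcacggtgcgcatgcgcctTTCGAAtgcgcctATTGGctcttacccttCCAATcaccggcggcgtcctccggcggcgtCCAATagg
Fam83d: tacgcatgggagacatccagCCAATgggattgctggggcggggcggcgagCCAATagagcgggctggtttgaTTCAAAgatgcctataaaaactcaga

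CCAAT was present in 28 of 36 promoters (77.8%) of the 34 mitotic genes that rose and had an entry. For the whole mitotic list, risen or not, it was in 33 of 45 promoters (73.3%). It was in 63% of the 162 promoters of all genes that rose. In the table it was in 11120 of 32851 promoters (33.8%), and in 35.2% of promoters of genes tested. The CHR letters were present in 12 of the 36 promoters (33.3%) and in 14 of the 45 (31.1%), and in 27.8% of the 162 promoters of all genes that rose. They were in 5633 of 32851 (17.1%) of the table and in 12.1% of promoters of genes tested.

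Between 10 and 20 Gy, 211 of 14644 genes tested (1.44%) passed an adjusted p of 0.05 in edgeR's quasi-likelihood test with the replicate number as a block and Benjamini-Hochberg adjustment. Of these, 163 (1.11% of genes tested) were higher at 20 Gy and 48 (0.328%) were lower. The changes were small: the median of the rises was 0.30 on the log2 scale, or 23.1% more transcript, and the median of the falls was -0.29, or -18.4%. None of the rises reached 2-fold and 2 reached 1.5-fold, while 7 of the falls reached 2-fold. Without the replicate block, 0 genes passed, with 277 at an unadjusted p under 0.05, and the cause was not tested. DESeq2 with the block called 140 genes. The count was 409 without replicate 1 and 99, 79 and 85 without replicates 2, 3 and 4. Replicate 1 was the pair with the high sum of keratinocyte markers, but the cause of these differences in count was not tested. These libraries are not stated to come from separate animals or cultures. With the block, the p-values measure the spread of the difference between doses over the 4 pairs, which may be technical.

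**Figure D1:**
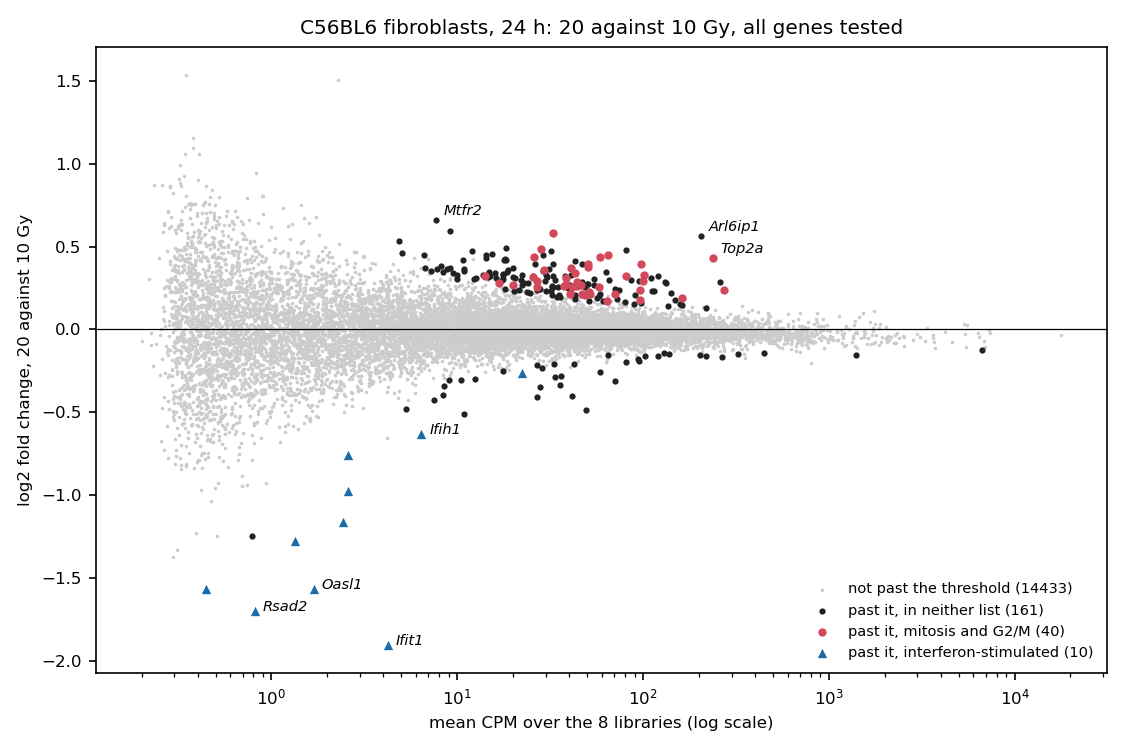
Log2 fold change of 20 against 10 Gy (vertical) against the mean CPM over the 8 libraries (horizontal, log scale) for the 14644 genes tested in C56BL6 fibroblasts at 24 h. Grey points did not pass the threshold, red points are the 40 mitotic genes blue triangles the 10 interferon-stimulated genes and black points the other 161 genes that did. Most of the blue triangles lie at the left, at low CPM.

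The genes of mitosis and the G2 phase formed the largest block of rises. Of 50 listed genes, all of them tested, 40 rose and none fell, where 1.11% of all genes tested rose. All 50 had a fold change above 0, with a median of 0.26 against a median of -0.004 over all genes tested. In the pairs, 46 of the 50 were higher at 20 Gy in every pair, which held for 1472 of all 14644 genes tested (10.1%). For 11 of the 50 the 4 libraries at 20 Gy all lay above the 4 at 10 Gy, against 161 of all genes (1.1%). The number that rose was 42 without replicate 1, and 22, 20 and 24 without replicates 2, 3 and 4. In bulk RNA, more cells in G2 or mitosis and more of these RNAs per cell cannot be told apart, nor can their opposites where a group of genes fell.

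Top2a, the topoisomerase that untangles chromosomes before they part, stood at 200, 179, 217 and 210 CPM in replicates 1 to 4 at 10 Gy and at 247, 257, 317 and 271 CPM at 20 Gy. No library at 20 Gy fell into the range of the 10 Gy libraries. The log2 fold change was 0.43 ± 0.04 (SE), with an adjusted p of 5.37e-06 that reached at most 0.000295 when any 1 replicate was left out. Untreated cells held 275, 196, 297 and 253 CPM, a range that overlaps the 20 Gy libraries and reaches down to the 10 Gy libraries.

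Ccnb1, the cyclin B1 that starts mitosis, was at 49.2, 49.3, 60.7 and 58.1 CPM at 10 Gy and at 59.2, 68.9, 90.5 and 81.1 CPM at 20 Gy. The doses overlapped through replicate 3 at 10 Gy and replicate 1 at 20 Gy, yet each pair was higher at 20 Gy (0.45 ± 0.04, adjusted p = 2.08e-05). Its partner kinase Cdk1 rose by 0.33 ± 0.04 on the log2 scale (adjusted p = 6.44e-05). Cyclin A2 (Ccna2), which acts from S phase on, had the smallest rise of the called members at 0.17 ± 0.04 (adjusted p = 0.0245). The proliferation marker Mki67 did not pass: it stood at 186, 174, 217 and 210 CPM at 10 Gy and at 170, 181, 240 and 215 CPM at 20 Gy (0.02 ± 0.04, adjusted p = 0.897).

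Regulators of entry into mitosis rose on each side of the switch. Cdc25b, the phosphatase that activates Cdk1, went from 28.9, 21.4, 19.5 and 24.4 CPM to 32.7, 31.6, 32.7 and 34.9 CPM (0.49 ± 0.07, adjusted p = 0.00047). Cdc25c, of the same family, rose by 0.32 ± 0.06 (adjusted p = 0.0127). Pkmyt1, the kinase that restrains Cdk1, went from 11.6, 10.4, 9.11 and 9.06 CPM to 12.6, 11.8, 16.3 and 15.8 CPM (0.48 ± 0.10, adjusted p = 0.0213). The doses did not overlap for either Cdc25b or Pkmyt1, but the call for Pkmyt1 was lost when 1 replicate was left out (adjusted p up to 0.243). The mitotic kinases Aurka (0.40 ± 0.05), Aurkb (0.32 ± 0.05), Nek2 (0.36 ± 0.05) and Plk1 (0.29 ± 0.06) rose as well.

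Genes of the spindle held several of the largest rises. Nusap1, a microtubule-binding protein of the spindle, was the member with the largest fold change: 24.9, 23.9, 29.9 and 25.7 CPM at 10 Gy became 34, 40.7, 45.3 and 37.3 CPM at 20 Gy, with no overlap (0.58 ± 0.05, adjusted p = 5.86e-06). Prc1, which bundles the central spindle, rose by 0.40 ± 0.04 (adjusted p = 5.86e-06) and Ube2c, the ubiquitin-conjugating enzyme of the anaphase-promoting complex, by 0.44 ± 0.04 (adjusted p = 2.59e-05). Of the kinesin motors, Kif18b rose by 0.43 ± 0.06, Kif20b by 0.31 ± 0.05, Kif20a by 0.30 ± 0.04, Kif11 and Kif2c by 0.26 each and Kif4 by 0.23 ± 0.05. Of the centromere proteins, Cenpa rose by 0.38 ± 0.05 and Cenpf by 0.34 ± 0.05.

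Outside the list, Mtfr2, a regulator of mitochondrial fission, had the largest rise of all genes named by rule. It went from 5.38, 5.99, 6.43 and 5.99 CPM to 9.27, 9.60, 9.85 and 8.97 CPM, a mean of 5.95 ± 0.433 CPM (SD, n = 4) against 9.42 ± 0.387 CPM, with a clear gap between the doses (0.66 ± 0.08, adjusted p = 0.000183). Arl6ip1, an endoplasmic reticulum shaping protein, rose from 152, 163, 175 and 172 CPM to 202, 252, 282 and 253 CPM (0.56 ± 0.04, adjusted p = 2e-07). Fam83d, a spindle protein, rose from 14.6, 13.4, 16.2 and 16.2 CPM to 20.2, 19.4, 23.2 and 22.6 CPM (0.49 ± 0.06, adjusted p = 8.79e-05). Ckap2, a spindle protein that is also known as a p53 target, rose by 0.48 ± 0.04 (adjusted p = 1.73e-06). Kifc5b rose by 0.59 ± 0.09 (adjusted p = 0.00178), but it is a close copy of Kifc1, which rose by 0.39, and their reads may not be separable.

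**Figure D2:**
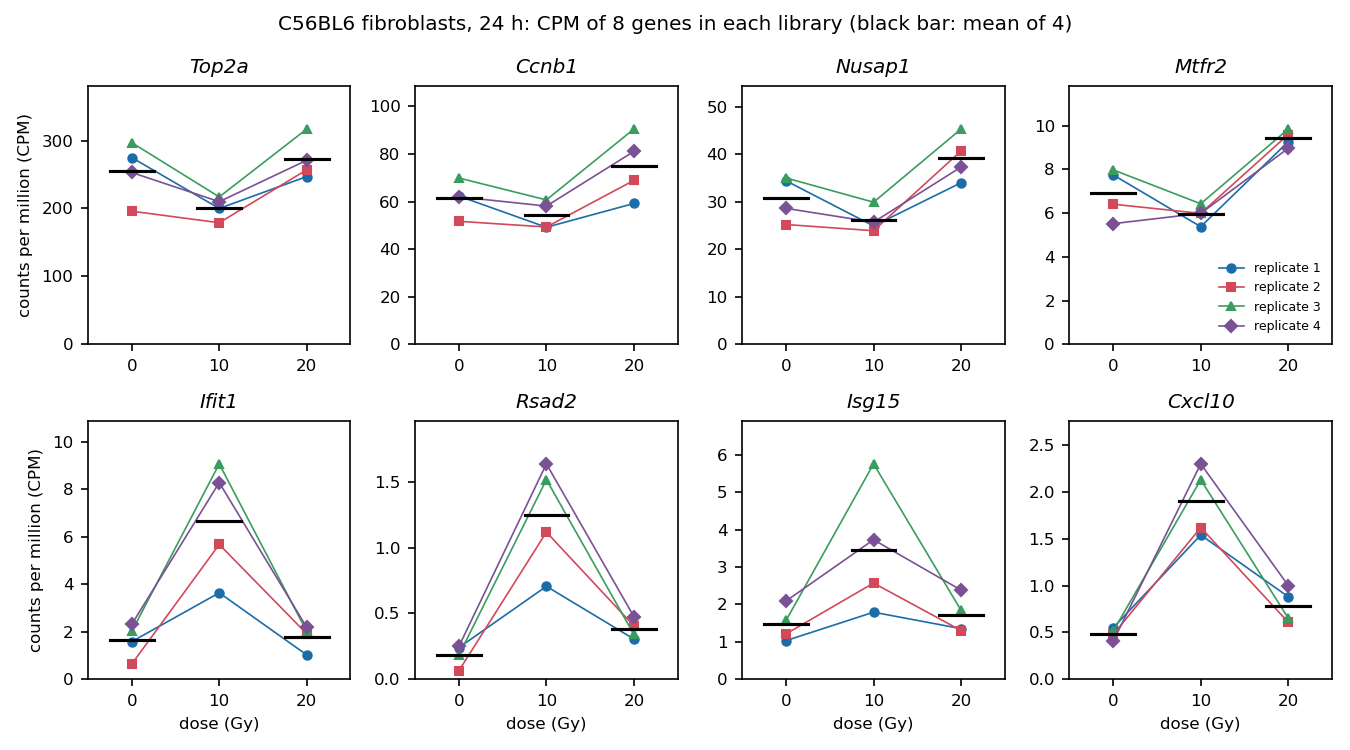
CPM (vertical, each panel from 0) of 4 mitotic or mitosis-linked genes (top) and 4 interferon-stimulated genes (bottom) at 0, 10 and 20 Gy in C56BL6 fibroblasts at 24 h; points are libraries, lines join the same replicate number and black bars are means of 4. Ifit1 peaks at 10 Gy in all 4 replicates (3.64 to 9.08 CPM), while Top2a is lower at 10 Gy (179 to 217 CPM) than at 20 Gy (247 to 317 CPM).

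Repair by homologous recombination and the Fanconi anaemia pathway, which use the sister chromatid to mend breaks and crosslinks, moved with the mitotic genes. Of 20 genes tested, 6 rose and none fell, where 1.11% of all genes tested rose. A fold change above 0 was seen in 19, and the median was 0.25. Brca1, a scaffold of this repair, rose from 17, 14.1, 17.8 and 16.4 CPM to 19.5, 19.8, 25.5 and 19.5 CPM without overlap (0.36 ± 0.06, adjusted p = 0.00495). Rad54l (0.37 ± 0.08, adjusted p = 0.0299), Fancg (0.35 ± 0.08, adjusted p = 0.0398), Blm (0.33 ± 0.06, adjusted p = 0.009) and Fanci (0.33 ± 0.07, adjusted p = 0.0281) rose too. The number that rose was 9 without replicate 1, and 1, 2 and 2 without replicates 2, 3 and 4.

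DNA replication genes moved less. Of 40 tested, 4 rose and none fell, where 1.11% of all genes tested rose. A fold change above 0 was seen in 35, and the median was 0.13. Mcm10, needed to start the replication forks, rose from 17.5, 13.4, 17.9 and 16.6 CPM to 19.5, 20.2, 23.6 and 20.3 CPM, without overlap (0.35 ± 0.06, adjusted p = 0.00722). Cdt1, which loads the helicase, rose by 0.30 ± 0.06 (adjusted p = 0.0208), and the helicase subunits Mcm5 and Mcm3 rose by 0.27 ± 0.05 (adjusted p = 0.009) and 0.17 ± 0.04 (adjusted p = 0.0322). Other parts of the same machinery did not pass, among them Mcm2 at 0.03, Mcm6 at 0.00 and the clamp Pcna at 0.03. The number that rose was 11 without replicate 1, and 1 with replicate 2, 3 or 4 left out in turn. Of 26 genes in the histone list, 13 were too low to test and none of the other 13 passed. Their median was 0.002. Most mRNAs of replication-dependent histones lack a polyA tail, so polyA libraries hold little of them.

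Interferon-stimulated genes moved the other way. Of 46 listed genes, 7 were too low to test. With the untreated libraries in place of the 10 Gy libraries, 9 were too low. Some of the genes tested can therefore have passed the filter for low genes only through their 10 Gy libraries. This favours a fall at 20 Gy in such genes, and the counts and median below include them. Of the 39 tested, 10 fell at 20 Gy and none rose, where 0.328% of all genes tested fell and 1.11% rose. A fold change below 0 was seen in 36, and the median was -0.30. In 18 of the 39 every pair was lower at 20 Gy, against 1214 of all 14644 genes (8.29%), and in 7 the libraries of the doses did not overlap, against 71 of all genes (0.485%). The number that fell was 13 without replicate 1, and 8, 6 and 8 without replicates 2, 3 and 4. Apart from Ifih1 and Stat2, the genes that fell had a mean of at most 6.67 CPM at 10 Gy.

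Ifit1, which binds foreign RNA and blocks its translation, had the largest change of all genes that passed. It stood at 3.64, 5.68, 9.08 and 8.29 CPM at 10 Gy, a mean of 6.67 ± 2.49 (SD, n = 4), and at 1.02, 1.91, 2.01 and 2.18 CPM at 20 Gy, a mean of 1.78 ± 0.521. The lowest library at 10 Gy was above the highest at 20 Gy (log2 fold change -1.90 ± 0.13, adjusted p = 2e-07, at most 1.01e-05 with any 1 replicate left out). Untreated cells were at 1.58, 0.634, 2.01 and 2.31 CPM, a range that overlaps that of the 20 Gy libraries and reaches below and above it. Ifit3, of the same family, went from 1.69, 3.96, 4.57 and 3.28 CPM to 1.25, 1.62, 1.44 and 1.6 CPM (-1.16 ± 0.18, adjusted p = 0.00139). It has a near-identical copy, Ifit3b, whose fold change was -0.79, and the split of reads between them is uncertain.

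Rsad2 (viperin), an antiviral enzyme, fell from 0.707, 1.12, 1.52 and 1.64 CPM to 0.305, 0.405, 0.340 and 0.476 CPM (-1.70 ± 0.26, adjusted p = 0.00134). Oasl1, which restrains translation of the interferon regulator Irf7, fell from 1.39, 2.43, 3.15 and 3.14 CPM to 0.609, 0.752, 1.16 and 0.902 CPM (-1.56 ± 0.18, adjusted p = 0.000121). The doses did not overlap for either gene. Isg15, a ubiquitin-like modifier, fell from 1.79, 2.57, 5.76 and 3.73 CPM to 1.35, 1.30, 1.84 and 2.38 CPM (-0.97 ± 0.18, adjusted p = 0.00735), with replicate 1 at 10 Gy inside the 20 Gy range. Oasl2 fell by 0.76 ± 0.17 on the log2 scale (adjusted p = 0.0253).

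Among the sensors, Ifih1 (MDA5), which detects long foreign RNA, fell from 6.37, 8.29, 9.45 and 7.11 CPM to 5.08, 5.15, 5.01 and 4.91 CPM, without overlap (-0.63 ± 0.10, adjusted p = 0.00215). Ddx60, a helicase that aids RNA sensing, fell by 1.56 ± 0.33 on the log2 scale (adjusted p = 0.0173) at levels under 1.1 CPM. The related sensor Rigi was at -0.12 and did not pass (adjusted p = 0.552). Stat2, the signal protein of the pathway, fell from 24.0, 20.7, 26.1 and 26 CPM to 19.4, 19.7, 19 and 22.8 CPM (-0.26 ± 0.06, adjusted p = 0.0368), while its partner Irf9 (-0.09, adjusted p = 0.709) did not pass. Parp9, an ADP-ribosyltransferase of interferon signalling that was not in the list, fell by 0.39 ± 0.09 on the log2 scale (adjusted p = 0.0259, up to 0.282 with 1 replicate left out).

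A pair of chemokines that draw T cells fell too. Cxcl10 went from 1.54, 1.62, 2.13 and 2.30 CPM to 0.880, 0.607, 0.651 and 1.0 CPM (-1.28 ± 0.20, adjusted p = 0.00212), and Ccl5 from 0.783, 0.845, 1.29 and 1.53 CPM to 0.271, 0.492, 0.510 and 0.601 CPM (-1.25 ± 0.25, adjusted p = 0.0127). Neither overlapped between the doses. Cxcl10 was counted in the interferon-stimulated list. In the separate list of cytokines and chemokines, 9 of the 24 listed were too low to test. With the untreated libraries in place of the 10 Gy libraries, 10 were too low. A gene of this list can therefore have been tested only through its 10 Gy libraries, which favours a fall. Ccl5 was the only 1 of the 15 tested to pass, where 0.328% of all genes tested fell. Its call was lost without replicate 3 or 4. Il6, the inflammatory cytokine of senescent fibroblasts, spanned 5.08 to 40.9 CPM between replicates at 10 Gy and 4.84 to 33.8 CPM at 20 Gy, and its difference of -0.13 ± 0.06 did not pass (adjusted p = 0.436). None of 14 genes of MHC class I antigen presentation passed. H2-D1, with the smallest p of them, was at 0.09 ± 0.04 (adjusted p = 0.322).

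**Figure D3:**
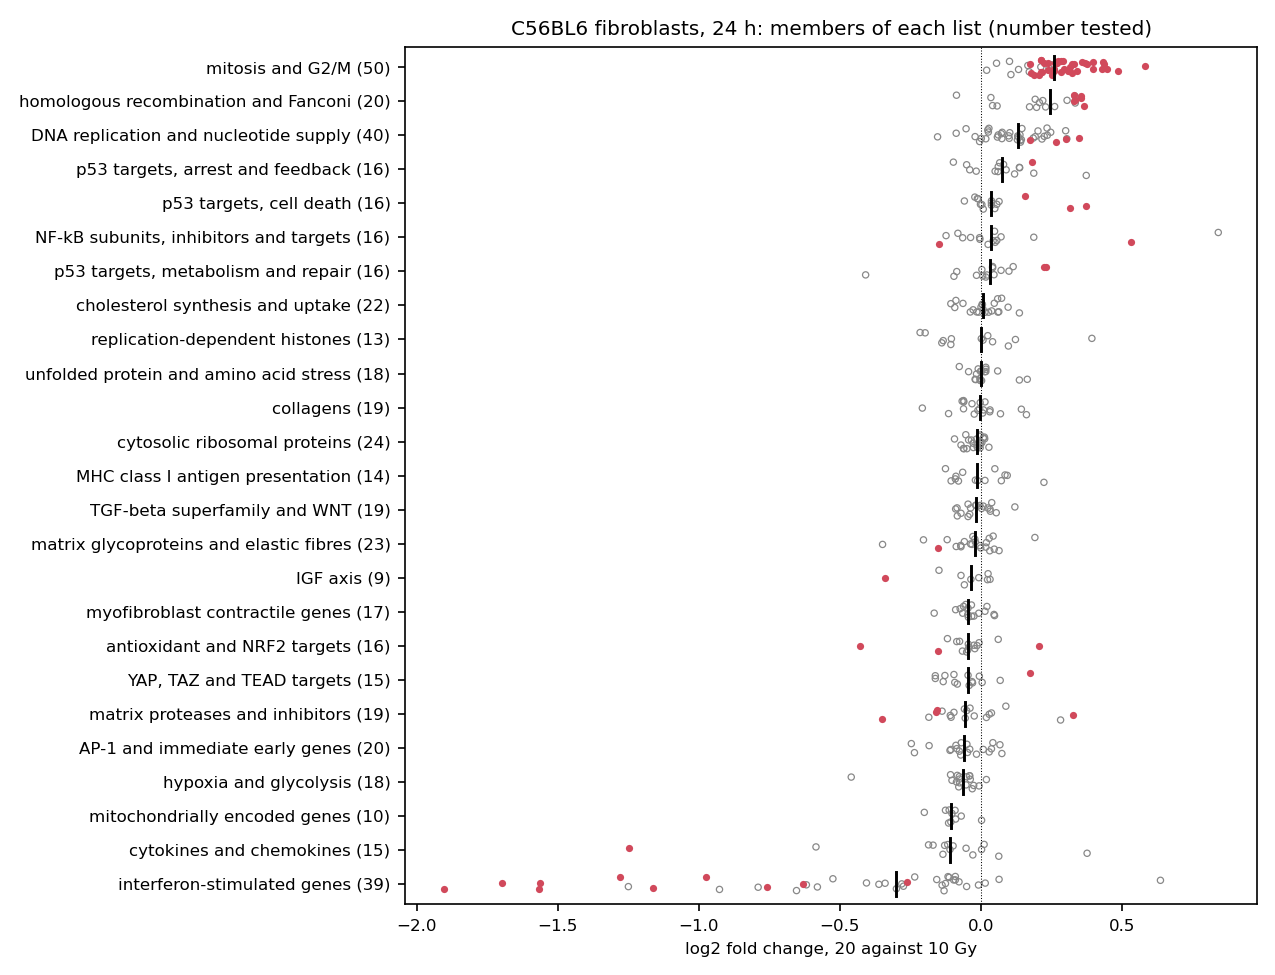
Log2 fold change of 20 against 10 Gy (horizontal) for every tested member of 25 gene lists in C56BL6 fibroblasts at 24 h; filled red points passed the threshold, open points did not and black bars are list medians. The mitotic list (median 0.26) lies at the top and the interferon-stimulated list (median -0.30) at the bottom, while most others centre near 0.

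Of the p53 targets, 6 of 48 rose between the doses, where 1.11% of all genes tested rose, and the changes were small. Of 16 genes of arrest and feedback 1 rose, of 16 death genes 3 rose and of 16 genes of metabolism and repair 2 rose; none fell, and the medians were 0.07, 0.04 and 0.03. Cdkn1a (p21), the main brake, was at 418, 466, 453 and 504 CPM at 10 Gy and at 438, 498, 476 and 524 CPM at 20 Gy. Each pair was slightly higher at 20 Gy, but the difference of 0.07 ± 0.03 did not pass (adjusted p = 0.418). Mdm2, the ligase that degrades p53, went from 379, 363, 381 and 353 CPM to 409, 401, 429 and 373 CPM and missed the threshold (0.12 ± 0.03, adjusted p = 0.0672). Ccng1, another direct target, was at 0.08 ± 0.03 (adjusted p = 0.379).

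Pmaip1 (Noxa), which triggers mitochondrial cell death, had the largest rise of the death genes, from 24.0, 14.7, 16.5 and 14.7 CPM to 27.8, 19.6, 22.5 and 20.2 CPM (0.37 ± 0.06, adjusted p = 0.00151). Replicate 1 was the highest at each dose and made the doses overlap. Pidd1, which builds a caspase-activating platform, rose by 0.31 ± 0.07 (adjusted p = 0.0299) and Trp53inp1, a cofactor of p53, by 0.16 ± 0.04 (adjusted p = 0.0285), while the death genes Bax (-0.02), Bbc3 (-0.06) and Fas (0.07) did not pass. Gtse1, which is also a gene of the G2 phase, rose from 72.5, 65.1, 70.0 and 64.1 CPM to 79.1, 71.9, 85.2 and 73.6 CPM (0.18 ± 0.04, adjusted p = 0.0174). Dcxr, a carbonyl reductase, rose by 0.23 ± 0.05 (adjusted p = 0.0368) and the stress cytokine Gdf15 by 0.23 ± 0.05 (adjusted p = 0.0473). Without replicate 2, 3 or 4, 1 death gene and none of the other p53 targets passed.

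Genes of the cell surface and matrix gave scattered calls, where 1.11% of all genes tested rose and 0.328% fell. Icam1, an adhesion molecule induced by NF-kB, rose from 2.73, 2.77, 4.71 and 5.68 CPM to 3.59, 4.28, 7.59 and 7.71 CPM (0.53 ± 0.10, adjusted p = 0.0101), with replicates 1 and 2 low at each dose. Vcam1, of the same kind, fell by 0.15 ± 0.03 on the log2 scale (adjusted p = 0.0398), and they were the only ones to pass of 16 NF-kB genes. Among 19 matrix proteases and inhibitors, Serpine2 rose (0.33 ± 0.06, adjusted p = 0.0112), and Serpinb2 (-0.35 ± 0.07, adjusted p = 0.0144), Adamts1 (-0.16 ± 0.04, adjusted p = 0.0388) and the urokinase Plau (-0.15 ± 0.04, adjusted p = 0.0334) fell. Tenascin C (Tnc) fell from 1243, 1201, 1770 and 1657 CPM to 1083, 1119, 1571 and 1533 CPM (-0.15 ± 0.03, adjusted p = 0.0104). It was the only 1 of 23 matrix glycoproteins to pass. All of these were lower or higher in each of the 4 pairs, and without replicate 2 none of them passed.

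The remaining calls among the lists were few, where 1.11% of all genes tested rose and 0.328% fell. Nqo1, a quinone reductase driven by NRF2, rose from a range of 53.9 to 115 CPM to a range of 67.5 to 130 CPM (0.21 ± 0.04, adjusted p = 0.00867), while the antioxidant genes Gsta4 (-0.43 ± 0.08, adjusted p = 0.0122) and Srxn1 (-0.15 ± 0.03, adjusted p = 0.0324) fell. Ptpn14, a phosphatase of the YAP pathway, rose by 0.18 ± 0.04 (adjusted p = 0.0334). Igfbp5, which binds insulin-like growth factors, fell from 2.73, 3.21, 19.9 and 12.0 CPM to 2.4, 2.66, 15.5 and 9.22 CPM (-0.34 ± 0.08, adjusted p = 0.0486). Replicates 3 and 4 held several times more of it than replicates 1 and 2 at each dose.

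Of the other largest falls, Gjb2, a gap junction protein of keratinocytes, was at 28.4 CPM in replicate 1 and at 3.72 to 9.79 CPM in the other replicates at 10 Gy. At 20 Gy it was at 24.7 CPM and at 2.14 to 5.64 CPM (-0.51 ± 0.10, adjusted p = 0.0112). Prl2c2 (-0.48 ± 0.06, adjusted p = 0.000198) and Prl2c3 (-0.40 ± 0.05, adjusted p = 0.000198), growth factors of the prolactin family known as proliferins, fell in all 4 pairs. They are near-identical copies, so the share of reads each received is uncertain. Nr4a2, an orphan nuclear receptor induced by stress, fell from 14.8, 31.8, 42.3 and 34.4 CPM to 12.7, 25.8, 29.6 and 24.4 CPM (-0.41 ± 0.06, adjusted p = 0.000629), and Lingo2, a membrane protein, fell by 0.48 ± 0.10 on the log2 scale (adjusted p = 0.0134).

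In 9 other lists no gene passed at the threshold. The collagens (19 tested, median -0.004), myofibroblast contractile genes (17, -0.04), AP-1 and immediate early genes (20, -0.06), cholesterol genes (22, 0.01), unfolded protein and amino acid stress genes (18, 0.001) and ribosomal protein genes (24, -0.01) were among them. The genes with the smallest p there included Col3a1 at -0.11 ± 0.03 (adjusted p = 0.0798), Klf2 at -0.18 ± 0.05 (adjusted p = 0.065), Sesn2 at 0.14 ± 0.03 (adjusted p = 0.065), Myl9 at -0.09 ± 0.03 (adjusted p = 0.295), Nsdhl at 0.14 ± 0.05 (adjusted p = 0.342) and Rpl8 at -0.07 ± 0.03 (adjusted p = 0.448). Hypoxia and glycolysis genes were below 0 in 17 of 18 (median -0.06), with Eno1 at -0.08 ± 0.03 (adjusted p = 0.289), and mitochondrially encoded genes in 9 of 10 (median -0.10), with mt-Nd6 at -0.20 ± 0.05 (adjusted p = 0.0706). TGF-beta and WNT genes had a median of -0.02, with the activin gene Inhba at -0.08 ± 0.03 (adjusted p = 0.322). The linker histone H1f0, which is not tied to replication although it stood in the histone list, was at -0.20 ± 0.05 (adjusted p = 0.059).

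The untreated libraries show where each dose lay. These comparisons share libraries with the one above, so their values are given side by side and are no independent support. The mean log2 CPM over the 50 mitotic genes was 5.53 ± 0.21 (SD, n = 4) untreated, 5.36 ± 0.10 at 10 Gy and 5.64 ± 0.15 at 20 Gy. Replicate 1 was at 5.73 untreated, 5.37 at 10 Gy and 5.54 at 20 Gy, so it stayed below its untreated level. Replicates 2, 3 and 4 were at 5.25, 5.63 and 5.49 untreated, at 5.21, 5.46 and 5.38 at 10 Gy and at 5.51, 5.85 and 5.65 at 20 Gy. At 10 Gy against untreated, 12 of the 50 fell and none rose, where 872 of 14280 genes tested (6.11%) fell. At 20 Gy against untreated, 14 rose and 1 fell, where 1191 of 14526 genes (8.2%) rose and 1372 (9.45%) fell. Top2a was at -0.31 ± 0.06 for 10 Gy (adjusted p = 0.00839) and at 0.12 ± 0.07 for 20 Gy (adjusted p = 0.264), Nusap1 at -0.22 ± 0.07 (adjusted p = 0.0835) and 0.37 ± 0.09 (adjusted p = 0.00925), and Arl6ip1 at 0.12 ± 0.05 (adjusted p = 0.119) and 0.68 ± 0.06 (adjusted p = 3.93e-06). Aurkb fell at 10 Gy, at -0.51 ± 0.07 (adjusted p = 0.000778), and was at -0.20 ± 0.07 at 20 Gy (adjusted p = 0.0768).

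The interferon-stimulated genes had their highest level at 10 Gy. The mean log2 CPM over the 39 genes was 1.21 ± 0.31 (SD, n = 4) untreated, 1.86 ± 0.29 at 10 Gy and 1.39 ± 0.15 at 20 Gy. These 39 passed the filter for low genes in the 10 and 20 Gy libraries, and 37 passed it in the 20 Gy and untreated libraries. Members that passed only through their 10 Gy level raise the mean at 10 Gy, and the means without them were not computed. At 10 Gy against untreated 10 of 39 rose and 2 fell, where 774 of 14280 genes (5.42%) rose and 872 (6.11%) fell. At 20 Gy against untreated 1 of 37 rose and 2 fell, where 8.2% of all genes tested rose and 9.45% fell. Ifit1 was at 2.05 ± 0.23 for 10 Gy (adjusted p = 0.000338) and at 0.17 ± 0.26 for 20 Gy (adjusted p = 0.709). Oasl1 was at 2.78 (adjusted p = 0.000158) and 1.22 (adjusted p = 0.0116), so it stayed above the untreated level at 20 Gy.

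Many p53 targets rose from untreated at each dose. Of the 47 tested, 23 rose and 1 fell at 10 Gy, where 5.42% of all genes tested rose and 6.11% fell. At 20 Gy 27 rose and 2 fell, where 8.2% rose and 9.45% fell. Mdm2 was at 0.86 ± 0.05 for 10 Gy (adjusted p = 1.05e-05) and 0.98 ± 0.05 for 20 Gy (adjusted p = 8.86e-08), and Cdkn1a at 0.42 ± 0.06 (adjusted p = 0.00146) and 0.48 ± 0.05 (adjusted p = 6.01e-05). Pmaip1 was at 0.96 ± 0.14 (adjusted p = 0.00132) and 1.33 ± 0.14 (adjusted p = 2.99e-05). Icam1 stepped up at each dose, at 0.91 ± 0.19 (adjusted p = 0.0113) and 1.45 ± 0.17 (adjusted p = 7.8e-05), and Igfbp5 stepped down, at -1.15 ± 0.15 (adjusted p = 0.000827) and -1.53 ± 0.15 (adjusted p = 1.99e-05).

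**Figure D4:**
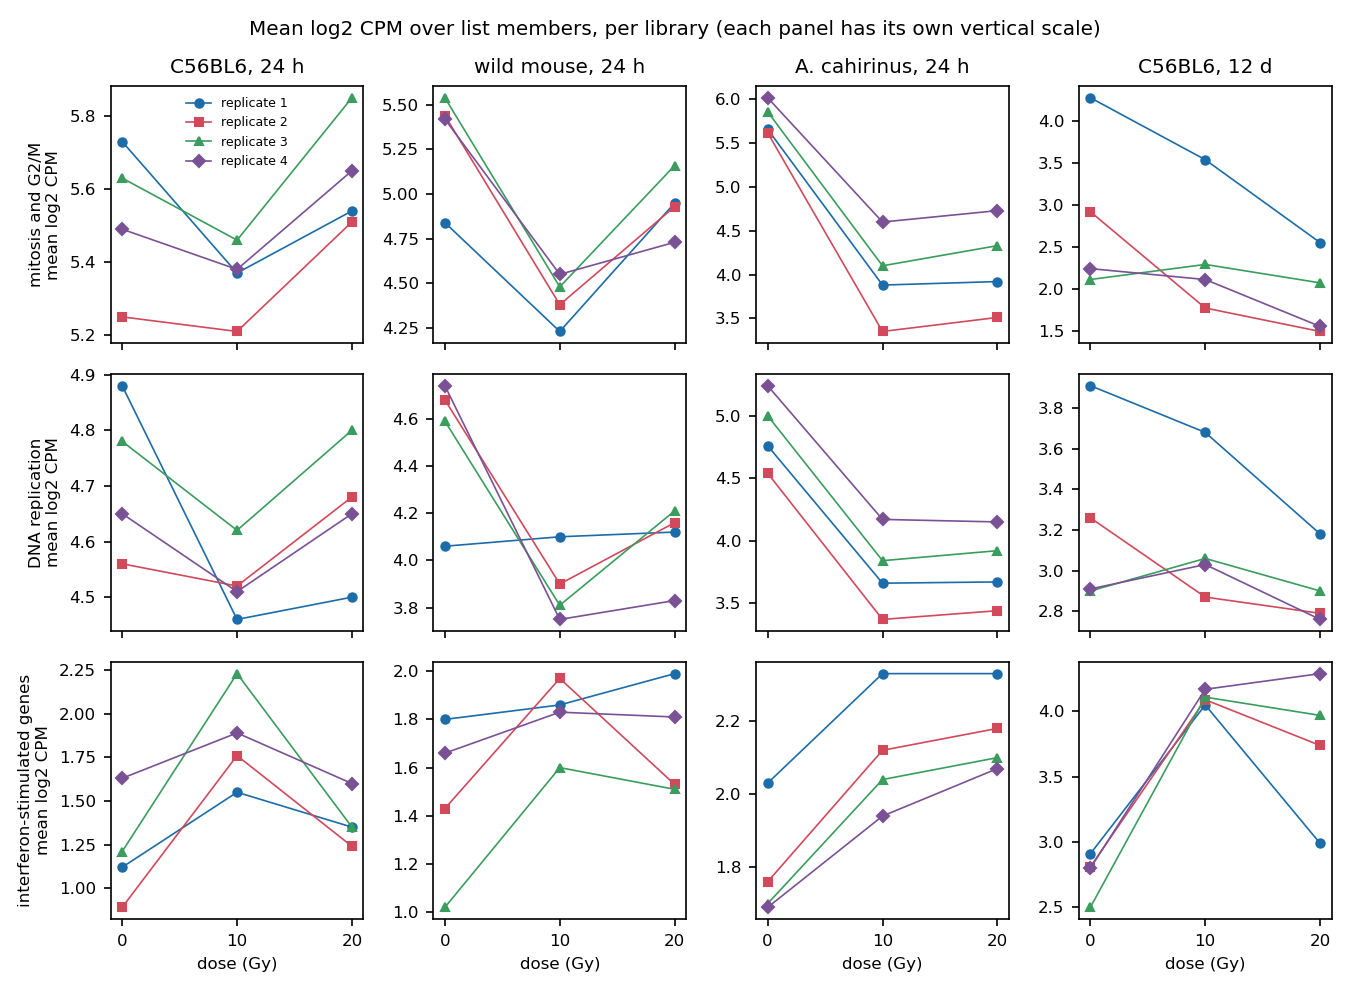
Mean log2 CPM over the tested members of 3 lists (rows) at 0, 10 and 20 Gy in 4 sets of libraries (columns); points are libraries, lines join the same replicate number and each panel has its own vertical scale. Members are those that passed the filter for low genes in the 10 and 20 Gy libraries of each set, without regard to the untreated level. In C56BL6 cells at 24 h the mitotic genes are lowest at 10 Gy (5.21 to 5.46) and the interferon-stimulated genes highest there (1.55 to 2.23), while at 12 d the mitotic genes fall from 0 to 20 Gy in 3 of 4 replicates by more than 0.6.

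The same step from 10 to 20 Gy was compared with the other animals at 24 h. In wild mouse cells 0 of 14623 genes passed in edgeR's test (188 at an unadjusted p under 0.05) and 0 in DESeq2. The library of replicate 1 at 10 Gy stood apart there, with 17419339 counts and 17843 genes detected against 21846 to 22253 genes in the others at that dose, and without replicate 1 283 genes passed, 236 higher and 47 lower. The mitotic genes were above 0 in 49 of 50, with a median of 0.44. The interferon-stimulated genes were below 0 in 26 of 41, with a median of -0.19, and none passed. Their medians in pairs 1 to 4 were 0.068, -0.327, -0.055 and 0.011, so the direction differed between pairs. The test of the difference between wild and C56BL6 cells called 0 of 15643 genes, 178 at an unadjusted p under 0.05, and 0 as well without replicate 1 of the wild cells. This does not show that the animals respond alike: for Top2a the difference was 0.43 ± 0.17 with the larger value in wild cells, and it did not pass (adjusted p = 0.81).

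In A. cahirinus cells 40 of 13242 genes (0.302%) passed, 36 (0.272%) higher and 4 (0.0302%) lower. Of 50 mitotic genes 8 rose and none fell (median 0.14). Of the interferon-stimulated genes 24 of 46 were too low to test or absent from that table, and none of the other 22 passed (median 0.05). Ccnb1 was at 0.40 ± 0.04 (adjusted p = 0.000153) and Ckap2 at 0.29 ± 0.04 (adjusted p = 0.00358). The difference from C56BL6 cells passed for 6 of 13736 genes (0.0437%), 2 higher (0.0146%) and 4 lower (0.0291%), and for 0 without replicate 3. Icam1 had the largest in the negative direction (-0.54 ± 0.09, adjusted p = 0.0131), being at -0.01 ± 0.04 in A. cahirinus. Peg10, an imprinted gene of retrotransposon origin, had the largest in the positive direction (0.40 ± 0.08, adjusted p = 0.0455): it fell by 0.33 ± 0.04 on the log2 scale in C56BL6 cells (adjusted p = 0.000391) and was at 0.06 ± 0.07 in A. cahirinus. The rise of Arl6ip1 was smaller in A. cahirinus by 0.36 ± 0.07 on the log2 scale (adjusted p = 0.0455). Reads of A. cahirinus were counted on its own genome, and 18109 symbols were shared with the mouse table.

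At 12 d the C56BL6 mitotic genes differed between the doses in the opposite direction. All 50 were below 0 for 20 against 10 Gy, with a median of -0.52. Of these, 3 fell, where 46 of 15463 genes passed in all (0.297%) and 11 (0.0711%) were lower. The difference between the times passed for 42 of the 50 mitotic genes, all with lower values at 12 d (median -0.85), where 195 of 16192 genes passed (1.2%), 79 higher (0.488%) and 116 lower (0.716%). Top2a was at 0.43 ± 0.04 at 24 h and at -0.62 ± 0.09 at 12 d, a difference of -1.07 ± 0.10 (adjusted p = 0.000125), and Pif1, a DNA helicase, at 0.45 ± 0.07 and -1.03 ± 0.22, a difference of -1.52 ± 0.19 (adjusted p = 0.00116). The count of 195 fell to 42, 89 and 106 without replicates 1, 2 and 3. All libraries of 12 d belong to a second labelled batch, which means that the time and the batch cannot be told apart.

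For the interferon-stimulated genes no difference between the times passed among 43 tested (median 0.08). At 12 d 41 of 43 were below 0 for 20 against 10 Gy with a median of -0.27 and none passed. Replicate 1 carried most of it: its median was -1.06 against -0.32, -0.12 and 0.11 in replicates 2, 3 and 4.

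**Figure D5:**
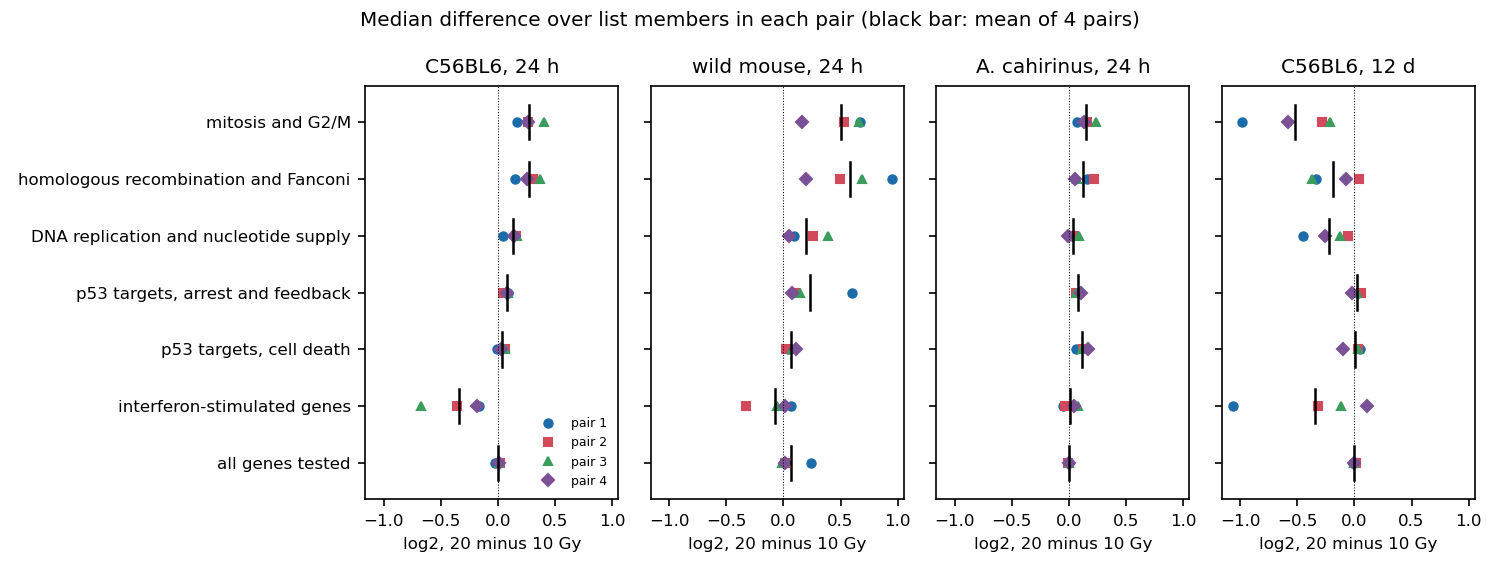
Median over list members of the log2 difference of 20 minus 10 Gy (horizontal) in each of 4 replicate pairs, for 6 lists and all genes tested, in 4 sets of libraries; black bars are means of the 4 pairs. In C56BL6 cells at 24 h all 4 pairs lie above 0 for the mitotic list (0.17 to 0.40) and below 0 for the interferon-stimulated list (-0.67 to -0.17), and at 12 d the mitotic pairs lie below 0 (-0.98 to -0.22).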

How the data were processed

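The deposited tables hold raw counts of reads per gene, made by the authors with featureCounts 2.0.3, per the file headers, on GRCm39 with Ensembl release 108 for mouse and on the A. cahirinus genome for spiny mouse. Trim Galore and HISAT2 are named in the submitters' processing notes, with no version given in the sources used here. Counting used no strand setting, so overlapping genes on opposite strands, antisense genes included, could not be separated, and reads with several matches were not counted, which bears on near-identical copies. The mouse table held 56980 genes, 56236 with a symbol.

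From these counts, edgeR 4.0.16 in R 4.3.3 fitted the 8 libraries with dose and replicate number, after filterByExpr and TMM scaling, leaving 3 residual degrees of freedom. The quasi-likelihood test was adjusted by Benjamini-Hochberg over all genes tested, at 0.05. Standard errors were the log2 fold change divided by the root of the test's F. Differences between animals or times were interaction terms of the same model over both sets. CPM use TMM factors over the 12 C56BL6 libraries of 24 h. Log2 CPM for list means used a prior count of 2. Alternatives were DESeq2 1.42.0, its size factors (RLE), no filter, no block, all 12 libraries in 1 fit and leaving out each replicate; the difference of wild from C56BL6 cells without replicate 1 of the wild cells was added after the data were seen. The script was tested on simulated data.

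The pairing came from the replicate numbers, each of which carries 1 code in the library names at every dose. Same-numbered libraries of the 10 and 20 Gy groups deviated together from their group means (r = 0.87, 0.72, 0.67 and 0.63), against -0.59 to 0.48 for other numbers. No pair of replicates agreed within sampling noise.

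Genes were named by rule: the 8 largest rises and 8 largest falls among called genes that averaged 5 CPM or more over the 8 libraries and moved 1 way in 4 pairs, the called member of each list with the largest and the one with the smallest fold change (or the smallest p where none was called), the panel Cdkn1a, Mdm2, Ccng1, Gdf15, Mki67, Top2a, Ccnb1 and Il6, and the extreme genes of each interaction. Other genes were named after their values were seen. The comparison, lists and rule were chosen with earlier results of these data known. Promoter letters were chosen after the data were seen and searched on both strands in the RefSeq promoter table. Some list members are not reported here.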

Additional observations from a re-analysis of the deposited data

Results flagged for a closer look

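In groups of 4 libraries, a library was marked where its gap to the nearest other library, over the range of the group, passed Dixon's critical value. This held for 11 of 171 groups, over 57 named genes at 3 doses, and chance marks about 1 in 20. Of the 11, 10 concerned replicate 1. In replicate 1, Gjb2 was at 24.7 CPM at 20 Gy against 2.14 to 5.64 CPM in the others, and Xirp2, a muscle gene, at 17, 23.7 and 17.6 CPM at 0, 10 and 20 Gy against at most 0.847 CPM in the others. Replicate 1 was low for Vcam1, at 198 CPM untreated and 184 CPM at 10 Gy against 371 to 406 CPM in the others, for Nr4a2 untreated, at 10.4 CPM against 28.9 to 31.1 CPM, and for Ptpn14 at 20 Gy, at 134 CPM against 163 to 168 CPM. It was high for Klf2, at 48.3 CPM untreated and 40.8 CPM at 10 Gy against 31.2 to 36.5 CPM. The remaining mark was Nqo1 in untreated replicate 3, at 75.8 CPM against 59.5 to 61.7 CPM.

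Some effects of dose differed between sets of libraries by the test of the difference. Between A. cahirinus and C56BL6 cells 6 genes passed, with Peg10 at 0.40 and Icam1 at -0.54. Between 12 d and 24 h 195 genes passed, with Pif1 at -1.52 and Xirp2 at 1.12, the last resting on replicate 1 at 24 h. Time and batch cannot be told apart there.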

How the results depend on the processing

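For 20 against 10 Gy at 24 h, where 211 genes passed, RLE scaling gave 215, no filter 355, DESeq2 140, no replicate block 0 and all 12 libraries in 1 fit 59. Leaving out a replicate gave 79 to 409, and without replicate 1 the rises made up 66.3% of calls against 77.3%. The mitotic genes that rose numbered 15 to 42 and the interferon-stimulated genes that fell 5 to 13, apart from 0 without the block. Mki67 (0.02) ranged from -0.02 without replicate 3 to 0.07 without replicate 1. For 10 against 0 Gy (1646 genes) no block gave 1 and leave-outs 509 to 3400, and for 20 against 0 Gy (2563) 13 and 1235 to 3194. In wild cells (0) leave-outs gave 0 to 283. In A. cahirinus (40) no filter gave 92, no block 0 and leave-outs 6 to 66. At 12 d (46) no filter gave 545, no block 0, DESeq2 227 and leave-outs 0 to 194. For the difference of A. cahirinus from C56BL6 (6) no filter gave 25, no block 0 and leave-outs 0 to 10, and for 12 d against 24 h (195) 417, 0 and 42 to 182. The difference of wild from C56BL6 was 0 in each alternative run. Of 38 called genes named by rule, 38 lost their call without the block, 10 in DESeq2, 24 in the fit of all 12 libraries, and 0, 19, 20 and 19 without replicates 1 to 4. The causes were not tested. DESeq2 was not run for the differences between sets. Depth limits genes of low level, among them most interferon-stimulated genes that fell: 3 counts equal about 0.1 CPM in these libraries.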

Other observations

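Beyond the listed genes, which held 60 of the 163 rises and 19 of the 48 falls, some single genes that passed are given here. They were picked after their values were seen, and no group they belong to was counted or tested. Of genes of condensin, which compacts chromosomes, Smc2 rose by 0.30, Ncapd2 by 0.31, Ncaph by 0.29, Ncapg by 0.26 and Ncapg2 by 0.18 on the log2 scale. Mastl, the kinase that holds the mitotic phosphorylation state, rose by 0.47, Tacc3 of the spindle by 0.35, and the centriole genes Stil and Plk4 by 0.42 and 0.21. The tubulins Tubb4b, Tuba1c and Tuba1b rose by 0.29, 0.22 and 0.15. The maintenance methyltransferase Dnmt1 rose by 0.23, the licensing inhibitor Gmnn by 0.30 and the p53 inhibitor Mdm4 by 0.23.

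Genes that fell, picked in the same way, were the hyaluronan synthase Has2 at -0.28, hepatocyte growth factor Hgf at -0.25, Angptl4 at -0.29, the interleukin receptor Il1rl1 at -0.31 and the integrin Itga3 at -0.26. Actb, often used as a reference gene, fell by 0.12 on the log2 scale, at a mean of 6681 CPM over the 8 libraries. Notch3, a receptor counted among the pericyte markers, rose by 0.35 and was the only gene of the 9 marker lists to pass.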
